A study of Mus musculus with 6 samples.

Results

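The 9 genes described here encode members of the Krüppel-like factor (KLF) family, receptors for sphingosine-1-phosphate (S1P) and surface-related proteins that mark or accompany the exit of T cells from the thymus: Klf2, Klf3, Klf6, Klf13, S1pr1, S1pr4, S1pr5, Ly6c1 and Cmah. They were chosen by name, with earlier results of these data known. Every probe annotated to them was taken, 13 probes for 9 of the 19057 genes with a probe on the array. Expression was measured on Illumina mouse bead arrays in natural killer T (NKT) cells, which see lipid antigens on the CD1d molecule through a T cell receptor of little variety. Mature thymic NKT cells, positive for CD44 and NK1.1, came from male C57BL/6 mice and were sorted into cells with the integrin chain CD103 on the surface (CD103+, 3 arrays) and cells without it (CD103-, 3 arrays). Both populations share strain, sex, organ and the CD44 and NK1.1 gate, and the labels give neither an age nor any transgene, treatment or pooling. The arrays are called biological replicates in the series design.

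S1P is abundant in blood and lymph and scarce inside lymphoid tissue, and lymphocytes that carry the receptor S1PR1 follow this gradient out of the thymus. KLF2, a zinc finger transcription factor that is itself induced by FOXO1, switches on S1pr1 and homing receptors in mature T cells and keeps them quiescent, while CD69 binds S1PR1 and removes it from the surface. CD103 pairs with the beta 7 chain and binds E-cadherin on epithelium, a property associated with cells that stay in tissue. Many thymic NKT cells with NK1.1 remain in the thymus for long periods.

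The stretches of 250 bases that end just before the gene start are shown for Klf2, the member whose transcript differed between the populations, and for S1pr4 and S1pr5, the S1P receptor members with a detected probe. The sequences are from RefSeq on mouse build GRCm38.p6, read 5′ to 3′ on the strand of the gene: Klf2 at chr8:72318812-72319061 on the plus strand, S1pr4 at chr10:81500138-81500387 and S1pr5 at chr9:21248444-21248693, both on the minus strand. Capitals mark GC boxes (GGGCGG) and CACCC boxes, the elements that KLF and SP factors bind, on either strand, and the consensus of MEF2, a factor known to activate Klf2 in endothelium.
Klf2: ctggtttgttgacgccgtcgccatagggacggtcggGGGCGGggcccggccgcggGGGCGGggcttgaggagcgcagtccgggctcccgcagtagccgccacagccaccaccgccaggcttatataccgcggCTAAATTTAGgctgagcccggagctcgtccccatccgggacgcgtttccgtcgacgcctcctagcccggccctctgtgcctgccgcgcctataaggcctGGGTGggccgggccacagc
S1pr4: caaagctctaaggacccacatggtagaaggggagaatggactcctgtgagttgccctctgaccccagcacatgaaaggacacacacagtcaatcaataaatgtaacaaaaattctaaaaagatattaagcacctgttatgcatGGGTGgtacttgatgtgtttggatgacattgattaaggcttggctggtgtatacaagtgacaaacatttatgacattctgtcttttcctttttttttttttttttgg
S1pr5: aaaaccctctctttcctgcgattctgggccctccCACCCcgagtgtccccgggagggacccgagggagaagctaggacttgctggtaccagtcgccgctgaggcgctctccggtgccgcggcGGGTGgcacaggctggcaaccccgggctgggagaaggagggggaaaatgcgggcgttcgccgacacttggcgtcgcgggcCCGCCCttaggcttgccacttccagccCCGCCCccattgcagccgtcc
The Klf2 stretch held 2 GC boxes, 1 CACCC box and 1 MEF2 consensus. The S1pr4 stretch held 1 CACCC box, and the S1pr5 stretch 2 GC boxes and 2 CACCC boxes. Among members whose stretches are not shown and that did not pass the test, Cmah also held 1 MEF2 consensus. Klf3 held 6 GC boxes, Klf13 3 and Klf6 1. Over 32851 stretches of the same length, 32.7% held a GC box, 52.0% a CACCC box and 2.92% the MEF2 consensus, which was searched after the Klf2 sequence had been seen. The FOXO element TGTTTAC was searched on both strands too, was in none of these 3 stretches and was in 3.17% of all. The content of G and C was 71.2% for Klf2, 38.8% for S1pr4 and 69.2% for S1pr5, against 53.2% over all stretches.

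The arrays differed in brightness, with mean signals of 501.6 to 825.9 on the CD103+ arrays, 526.1 on CD103- array 1 and 277.4 and 276.5 on CD103- arrays 2 and 3. Itgae, which encodes CD103, had a log2 difference of 4.73 (SE 0.181, n = 3 per group, limma adjusted p = 9.5e-05), as the sort implies. All 13 markers of NKT and T cells were measured, and none passed limma's test, with 3 at an unadjusted p under 0.05, beside 14.2% of all genes. Their median log2 difference was -0.19, with 3 of 13 higher in CD103+ cells. Of the 13, 6 did not overlap between the populations, beside 23.2% of all genes. Macrophage markers moved with CD103: 8 of 9 measured genes were higher. The summed normalized signals of the 9 were 2759 to 3517 on the CD103+ arrays and 279.5 to 331.4 on the CD103- arrays. C1qa, C1qb, C1qc, Adgre1, Apoe and Vcam1 were not detected on the CD103- arrays. These genes entered the test only through the CD103+ arrays, so the detection filter partly set the count of 8 of 9. Among 17462 tested probes, 206 passed an adjusted p of 0.05 by limma, 1.18%, of which 162 were higher in CD103+ cells, 0.928%, and 44 lower, 0.252%.

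Klf2 was the member that differed. Its transcript was 2.53-fold higher in CD103+ cells, with a 95% interval of 1.90-fold to 3.38-fold. S1pr1, the receptor best known as a target of KLF2, was not detected on any array of either population. The other KLF factors, S1pr4, S1pr5, Ly6c1 and Cmah did not pass the test. Of 11 member probes that could be tested 1 passed, and none in the lower direction. By the brightest probe 1 of 8 member genes passed, beside 1.38% of 8999 genes in either direction, 1.16% of them higher in CD103+ cells. As the members were chosen with earlier results known, setting these shares side by side is not a test. In the fit that pairs arrays by replicate number, Klf2 also was the 1 member that passed, beside 0.475% of probes and 0.611% of genes. The median log2 difference of the 8 genes was -0.02, beside 0.05 for all genes. With bulk RNA a higher level per cell and a larger share of expressing cells cannot be told apart.

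Klf2 was read by 1 probe, detected on all 6 arrays. Its signal before normalization was 1971, 3636 and 1849 on CD103+ arrays 1, 2 and 3, and 686.3, 360.1 and 321.4 on CD103- arrays 1, 2 and 3. The normalized log2 signals were 10.46, 10.75 and 10.77 in CD103+ cells and 9.10, 9.57 and 9.29 in CD103- cells. The groups did not overlap, as was the case for 23.2% of all genes, and the lowest CD103- value was on the bright CD103- array 1. The means were 10.66 ± 0.17 and 9.32 ± 0.24 (SD, n = 3). The log2 difference was 1.34 (SE 0.179, limma adjusted p = 0.0199, higher on 3 of 3 CD103+ arrays). When same-numbered arrays were paired the limma adjusted p was 0.0472. By signed log2 difference, counted from the genes most raised in CD103+ cells, Klf2 ranked 89th of 8999 genes. It ranked 72nd of the 104 genes that passed as higher. In the authors' deposited log2 values Klf2 lay at 10.25, 10.55 and 10.54 on the CD103+ arrays and at 8.87, 9.09 and 8.82 on the CD103- arrays, again without overlap.

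**Figure D1:**
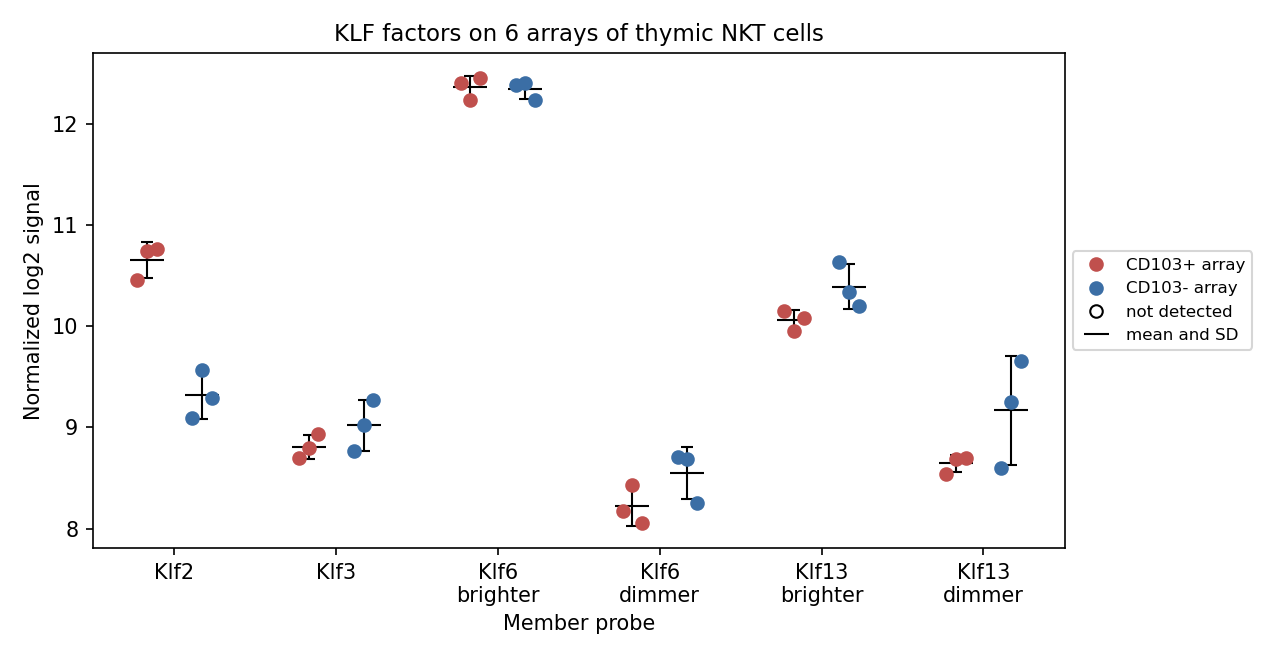
Normalized log2 signal (vertical axis) of the 6 KLF member probes on each array; red points are CD103+ arrays, blue points CD103- arrays, and black bars the mean and SD of 3 arrays. The 3 CD103+ values of Klf2, from 10.46 to 10.77, lie above the 3 CD103- values, from 9.10 to 9.57.

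The Klf2 difference kept its direction in all 19 alternatives, from 1.14 to 1.56, and passed the threshold in 14 of them. It did not pass without CD103+ array 1, 2 or 3 (adjusted p = 0.0766, 0.123 and 0.110), without CD103- array 3 (0.0579) or with array brightness as a covariate (0.211), by limma in each case. Without the dim CD103- arrays 2 and 3 it was 1.56 (adjusted p = 0.0416), with CD103- array 1 assumed to vary like the other group. On CD103+ arrays 1, 2 and 3 the summed macrophage signal was 3517, 2759 and 3219, and Klf2 lay at 10.46, 10.75 and 10.77. On CD103- arrays 1, 2 and 3 the sum was 307.5, 279.5 and 331.4, and Klf2 lay at 9.10, 9.57 and 9.29. Endothelial cells and B cells also express Klf2. Of 10 endothelial markers 2 were measured, with summed signals of 88.6 to 123.1 on the CD103+ arrays and 154.4 to 169.7 on the CD103- arrays, and Cdh5, Emcn, Esam, Eng, Plvap and Tie1 were detected on no array. Of 8 B cell markers 2 were measured, with sums of 120.1 to 151.5 and 68.5 to 127.0, and Pax5 and Blnk were detected on no array. Of 8 monocyte markers 4 were measured, with sums of 391.8 to 783.8 on the CD103+ arrays and 282.3 to 458.3 on the CD103- arrays, and Itgam, Fcgr1 and Cd14 were detected on no array. Ly86 was the monocyte marker that passed, not detected on any CD103- array and at least 1.65-fold higher in CD103+ cells (limma adjusted p = 0.0136, and 0.0522 when same-numbered arrays were paired). The bound sets the mean CD103+ level against the mean, over the CD103- arrays, of the lowest signal among detected probes or of the probe's own signal where that was higher. Of 8 markers of natural killer cells without a T cell receptor 4 were measured, and Klri1 passed as higher in CD103+ cells. Their sums were 5027 to 6478 on the CD103+ arrays and 5025 to 6910 on the CD103- arrays. Ncr1, Eomes and Cma1 were detected on no array. The part of macrophage, monocyte, endothelial, natural killer or B cell RNA in the Klf2 result was not tested.

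**Figure D2:**
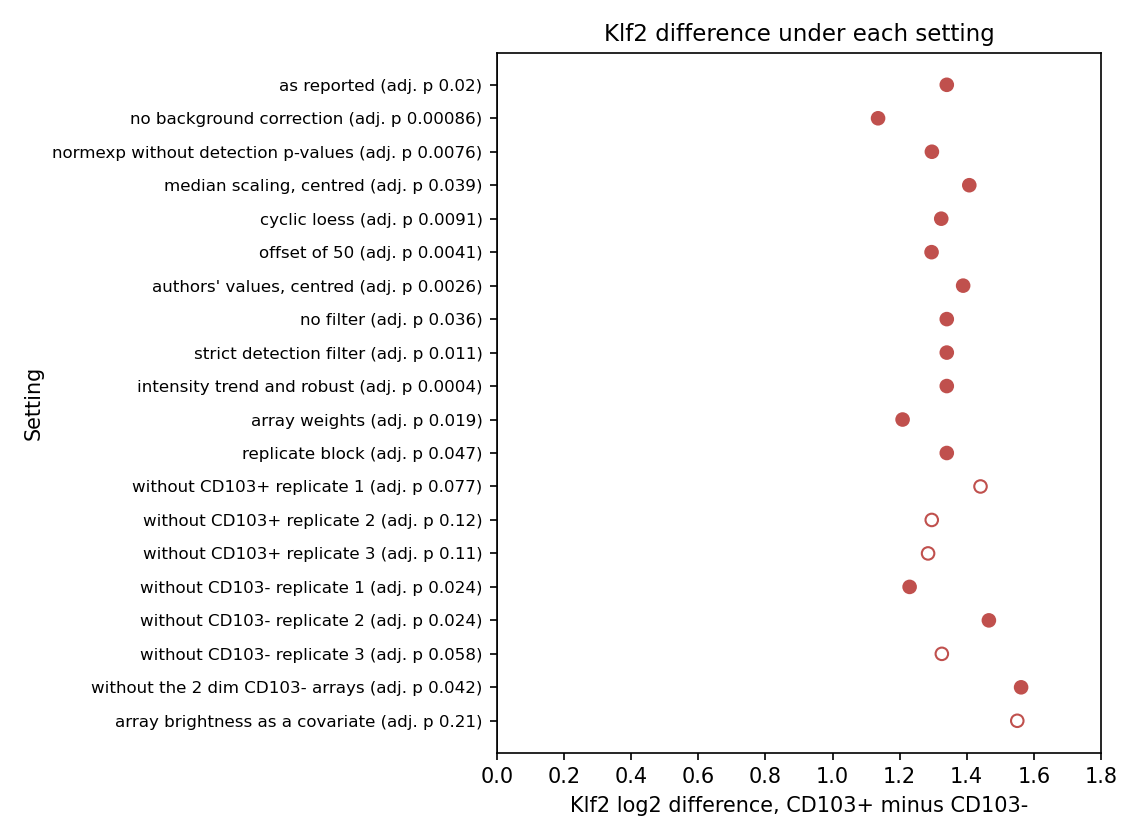
Klf2 log2 difference, CD103+ minus CD103- (horizontal axis), as reported and under each of 19 alternatives; filled points passed an adjusted p of 0.05 and open points did not. Every value lies between 1.14 and 1.56, and 5 alternatives did not pass.

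The other KLF factors did not pass the test in any of the alternatives. Klf3, a repressor that recruits CtBP, had log2 signals of 8.70, 8.79 and 8.93 in CD103+ cells and 8.77, 9.02 and 9.27 in CD103- cells. The groups overlapped, and the log2 difference was -0.21 (95% interval -0.62 to 0.19, limma adjusted p = 0.605). Klf6, which responds early to activation in many cell types, was read by 2 probes. The brighter lay at 12.41, 12.24 and 12.46 against 12.39, 12.41 and 12.24, a difference of 0.02 (-0.31 to 0.35, limma adjusted p = 0.953). The dimmer lay at 8.18, 8.43 and 8.05 against 8.71, 8.69 and 8.26, a difference of -0.33 (-0.77 to 0.11, limma adjusted p = 0.454). On neither Klf6 probe were the populations apart. Klf13, a factor that drives Ccl5 transcription in T lymphocytes, also had 2 probes. On the brighter one the values were 10.15, 9.96 and 10.08 in CD103+ cells and 10.64, 10.34 and 10.20 in CD103- cells, so all CD103- arrays lay above all CD103+ arrays, with a difference of -0.33 (-0.71 to 0.05, limma adjusted p = 0.396). On the dimmer one the values were 8.54, 8.69 and 8.70 against 8.59, 9.25 and 9.66, where the bright CD103- array 1 lay among the CD103+ arrays, with a difference of -0.52 (-1.14 to 0.09, limma adjusted p = 0.402). Without the dim CD103- arrays the dimmer probe stood at 0.05.

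The S1P receptors gave no difference past the threshold. The single S1pr1 probe had signals of 140.4, 168.6 and 127.4 on CD103+ arrays 1, 2 and 3 and of 119.1, 116.3 and 125.4 on CD103- arrays 1, 2 and 3. The detection p, which compares a signal with the negative controls of its array, was 0.794, 0.483 and 0.833 in CD103+ cells and 0.999, 0.934 and 0.625 in CD103- cells. The lowest signals that counted as detected on these arrays were 176.6, 218.7 and 155.1 and 163.6, 139.7 and 140.3, so S1pr1 was below what these arrays could detect in both populations, and no fold was computed. One probe is not evidence that the transcript is absent.

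S1pr4, an S1P receptor found mainly on lymphocytes, was detected on every array. Its log2 signals were 8.05, 8.07 and 8.33 in CD103+ cells and 8.05, 7.94 and 7.92 in CD103- cells. The populations met at the value of CD103- array 1, and the difference was 0.18 (95% interval -0.16 to 0.53, limma adjusted p = 0.596). The interval leaves out changes beyond 1.44-fold upward.

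S1pr5, which natural killer cells use to leave bone marrow and lymph nodes and which T-bet induces, was near the detection limit. Its brighter probe had signals of 182.9, 269.6 and 160.5 on the CD103+ arrays and of 186.9, 148.7 and 136.0 on the CD103- arrays, and was detected on all but CD103- array 3. The normalized values of 5.39, 5.98 and 5.37 against 5.92, 6.40 and 5.11 overlapped, with a difference of -0.23 (-1.03 to 0.56, limma adjusted p = 0.782), and without CD103- array 2 it stood at 0.06. The other S1pr5 probe was detected on CD103+ array 3 alone and was not tested.

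**Figure D3:**
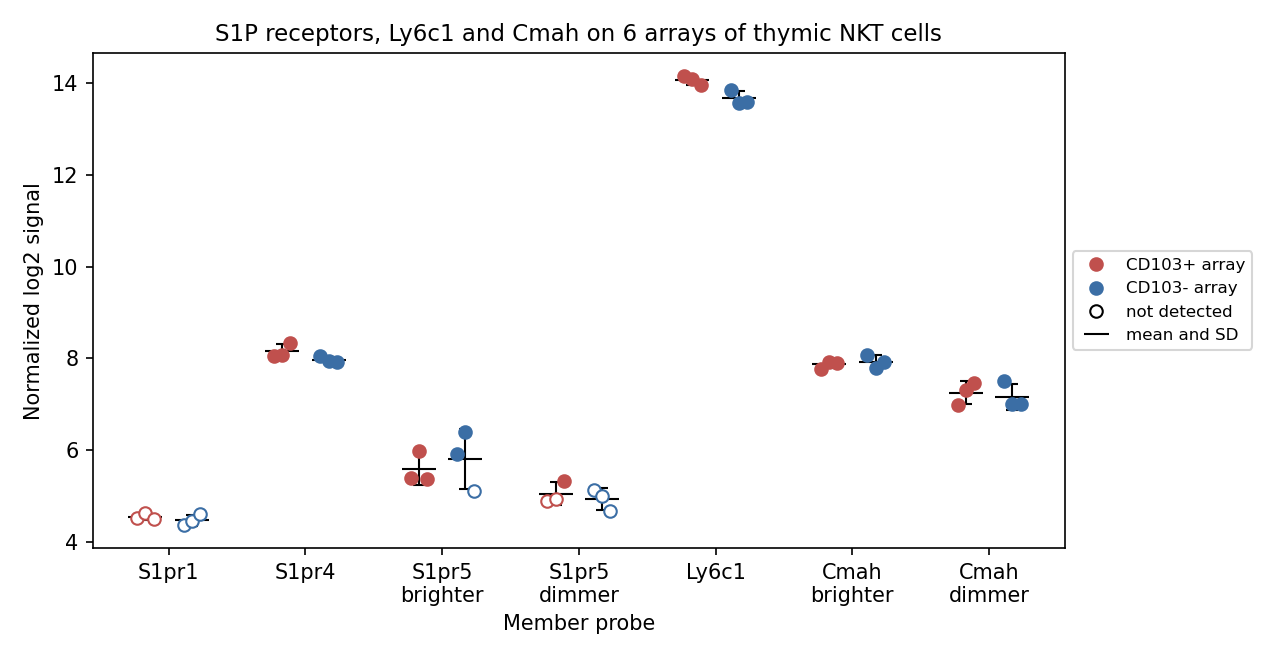
Normalized log2 signal (vertical axis) of the probes of S1pr1, S1pr4, S1pr5, Ly6c1 and Cmah on each array; red points are CD103+ arrays, blue points CD103- arrays, open points are signals that were not detected, and black bars the mean and SD of 3 arrays. S1pr1 is open on all 6 arrays, and Ly6c1 lies at 13.95 to 14.14 in CD103+ cells and at 13.57 to 13.85 in CD103- cells.

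Ly6c1 encodes one form of Ly6C, a surface protein anchored in the membrane by a lipid, which rises on T cells as they mature and on memory cells. Its probe was bright on all arrays, at 14.14, 14.10 and 13.95 in CD103+ cells and 13.85, 13.57 and 13.58 in CD103- cells. All CD103+ arrays lay above all CD103- arrays, yet the difference of 0.39 did not pass (95% interval 0.04 to 0.74, limma adjusted p = 0.290), and it was -0.20 with median scaling. Ly6c2 is a near-identical neighbour, so signal of this probe may include it. Monocytes also carry Ly6C, and the part of the monocyte marker signal given for Klf2 was not tested for Ly6c1.

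Cmah encodes the hydroxylase that turns N-acetylneuraminic acid into N-glycolylneuraminic acid, the sialic acid form that mouse lymphocytes carry and lose on activation. The brighter of its 2 probes lay at 7.78, 7.93 and 7.90 in CD103+ cells and at 8.07, 7.79 and 7.92 in CD103- cells. The dimmer lay at 6.97, 7.32 and 7.47 against 7.50, 7.0 and 7.01. Both overlapped between the populations, with differences of -0.06 (-0.40 to 0.28, limma adjusted p = 0.869) and 0.09 (-0.40 to 0.57, limma adjusted p = 0.867). Each interval leaves out a change of Cmah as large as that of Klf2.

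**Figure D4:**
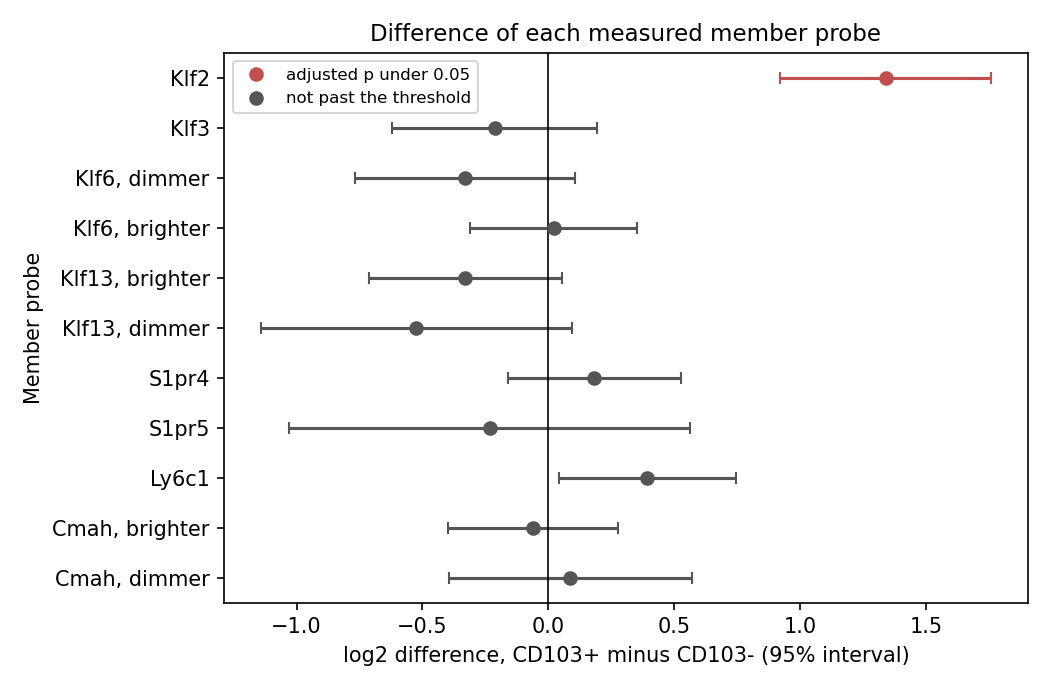
Log2 difference, CD103+ minus CD103- (horizontal axis), of the 11 member probes that were tested, with 95% intervals from the limma fit; red marks an adjusted p under 0.05. Klf2, at 1.34, is the probe that passed, and the interval of Ly6c1 (0.04 to 0.74) lies above 0 although its adjusted p was 0.290.

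By the brightest probe, 3 of the 8 measured members did not overlap between the populations, Klf2, Klf13 and Ly6c1, beside 23.2% of all genes. The profiles nearest to that of Klf2 over the 6 arrays, by root mean square difference of centred log2 values, were those of Emp1, a membrane protein with 4 transmembrane spans (0.0975), Klra22, a Ly49 receptor (0.118), and Serp2, a protein of the endoplasmic reticulum (0.132). These genes were picked for their likeness to Klf2 on the same arrays. Differences near that of Klf2 therefore follow from the choice and are no separate result. Emp1 was higher by 1.31 (SE 0.143, limma adjusted p = 0.00903), Klra22 by 1.20 (SE 0.159, limma adjusted p = 0.0199) and Serp2 by 1.38 (SE 0.206, limma adjusted p = 0.0273). Serp2 was detected on 1 of 3 CD103- arrays, so its difference rests on signals near background there and its size is uncertain. When same-numbered arrays were paired, Emp1 and Klf2 passed (limma adjusted p = 0.0466 and 0.0472), while Klra22 and Serp2 did not (0.0630 and 0.0604). Emp1, Klra22 and Serp2 each missed the threshold when any single CD103+ array was left out, and Klra22 and Serp2 also did without CD103- array 3 (differences of 1.27 to 1.39 for Emp1, 1.11 to 1.29 for Klra22 and 1.18 to 1.56 for Serp2 over the 6 such fits). The values of Klra22 are those of the brighter of its 2 probes. The dimmer one lay at 0.85 and did not pass (limma adjusted p = 0.0616). Klra22 belongs to a family of close copies, and its probes may read others of them. For S1pr5 the nearest profiles were Dennd2d (0.0936), Afp (0.118) and Scrn3 (0.132), with differences of -0.22, -0.09 and -0.09 that did not pass. The other measured members ranged over less than 1 log2 unit and were not matched.

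Genes around the members in the same pathways were taken from 6 lists, and by the brightest probe none of their members passed limma's test in either direction. The lists are described in the order of the pathway, with the count at an unadjusted p under 0.05 beside 14.2% of all genes and the count without overlap between the populations beside 23.2% of all genes.

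Of 22 other KLF and SP factors 10 were measured, 2 of them at an unadjusted p under 0.05, with a median difference of 0.11 and 1 of 10 without overlap. The largest was Klf10, a factor induced by TGF-beta, at 5.36, 4.73 and 5.51 in CD103+ cells, where it was detected on 2 of 3 arrays, and at 5.95, 7.02 and 6.38 in CD103- cells. The groups did not overlap, with a difference of -1.25 (SE 0.317, limma adjusted p = 0.140, 0.0489 to 0.756 over 19 alternatives, passing in 2). Klf4 lay at 0.28. Klf7 lay at -0.20 on its brightest probe and at 0.09 and 0.25 on its other tested probes, the last without overlap, and none passed.

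Of 22 genes of S1P production, transport and breakdown and other S1P receptors 12 were measured, 4 of them at an unadjusted p under 0.05, with a median of -0.02 and 5 of 12 without overlap. S1pr2 lay at -0.17 on its brightest probe and at -0.20 on its other tested probe. The S1P lyase gene Sgpl1 lay at -0.09 on its brighter probe and at -0.68 on the dimmer one (limma adjusted p = 0.803 and 0.301). The kinase gene Sphk1 was detected on no array by any of 3 probes. Asah1, an acid ceramidase gene chosen for mention after its value was seen, lay at 0.69 (SE 0.141, limma adjusted p = 0.0796).

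Of 23 genes of S1P receptor signalling, motility and retention 16 were measured, 1 of them at an unadjusted p under 0.05, with a median of -0.09 and 3 of 16 without overlap. Cd69 lay at 0.10 on its brighter probe (95% interval -0.24 to 0.45) and at 0.72 on the dimmer one (limma adjusted p = 0.780 and 0.624). The G protein gene Gnai2 lay at -0.29 on its brighter probe and at -0.17 on the dimmer one. The actin regulator Coro1a lay at -0.21 on its brightest probe and at 0.03, -0.14 and 0.04 on its others. None of these probes passed. Dock2, an exchange factor for RAC that lymphocytes need for migration and exit, named after its value was seen, lay at -0.97 (SE 0.190, limma adjusted p = 0.0712, 0.0125 to 0.744 over 19 alternatives, passing in 9).

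Of 18 FOXO and KLF2 regulated genes of homing and exit 15 were measured, 5 of them at an unadjusted p under 0.05, with a median of 0.25 and 8 of 15 without overlap. Foxo1 itself had log2 signals of 8.65, 8.75 and 9.09 in CD103+ cells and 8.29, 8.25 and 8.56 in CD103- cells, a difference of 0.46 (SE 0.176, limma adjusted p = 0.290). Il7r, the receptor chain for IL-7 and a FOXO1 target, was read by 5 probes that were all higher on average in CD103+ cells. Its brightest probe lay at 13.58, 13.51 and 13.59 against 12.97, 12.95 and 12.86, a difference of 0.64 (SE 0.130, limma adjusted p = 0.0786), and it passed in 6 of 19 alternatives. One of its dimmer probes passed, at 11.67, 11.66 and 11.65 against 10.66, 10.67 and 10.70, a difference of 0.99 (SE 0.127, limma adjusted p = 0.0172, and 0.0630 with the replicate block). A dimmer probe of Bcl2 passed in the other direction, at -1.17 (SE 0.158, limma adjusted p = 0.0202, and 0.0565 with the block), while the brightest Bcl2 probe lay at -0.39. Emb, which encodes the cell adhesion protein embigin and was named after its value was seen, had the largest difference of the list by brightest probe. It lay at 8.17, 8.56 and 8.41 against 7.52, 6.45 and 7.25, without overlap, a difference of 1.30 (SE 0.282, limma adjusted p = 0.0946), and it passed in 6 of 19 alternatives. The lymph node homing receptor Ccr7, detected on 2 CD103+ arrays and 1 CD103- array, lay at 0.20 (limma adjusted p = 0.785).

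Of 16 other Ly6 and uPAR family genes 2 were measured, none at an unadjusted p under 0.05 and 0 of 2 without overlap, with Ly6e at 0.06. Of 29 genes of sialic acid synthesis, transfer and removal 19 were measured, 8 of them at an unadjusted p under 0.05, with a median of 0.22 and 9 of 19 without overlap. The activating enzyme gene Cmas lay at 0.21 and the transferase gene St3gal6 at 0.14. St6gal1, which adds sialic acid in the alpha 2,6 linkage, lay at 12.76, 12.79 and 12.72 in CD103+ cells and at 12.12, 12.20 and 12.04 in CD103- cells, without overlap, a difference of 0.63 (SE 0.132, limma adjusted p = 0.0852), and it passed in 4 of 19 alternatives.

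**Figure D5:**
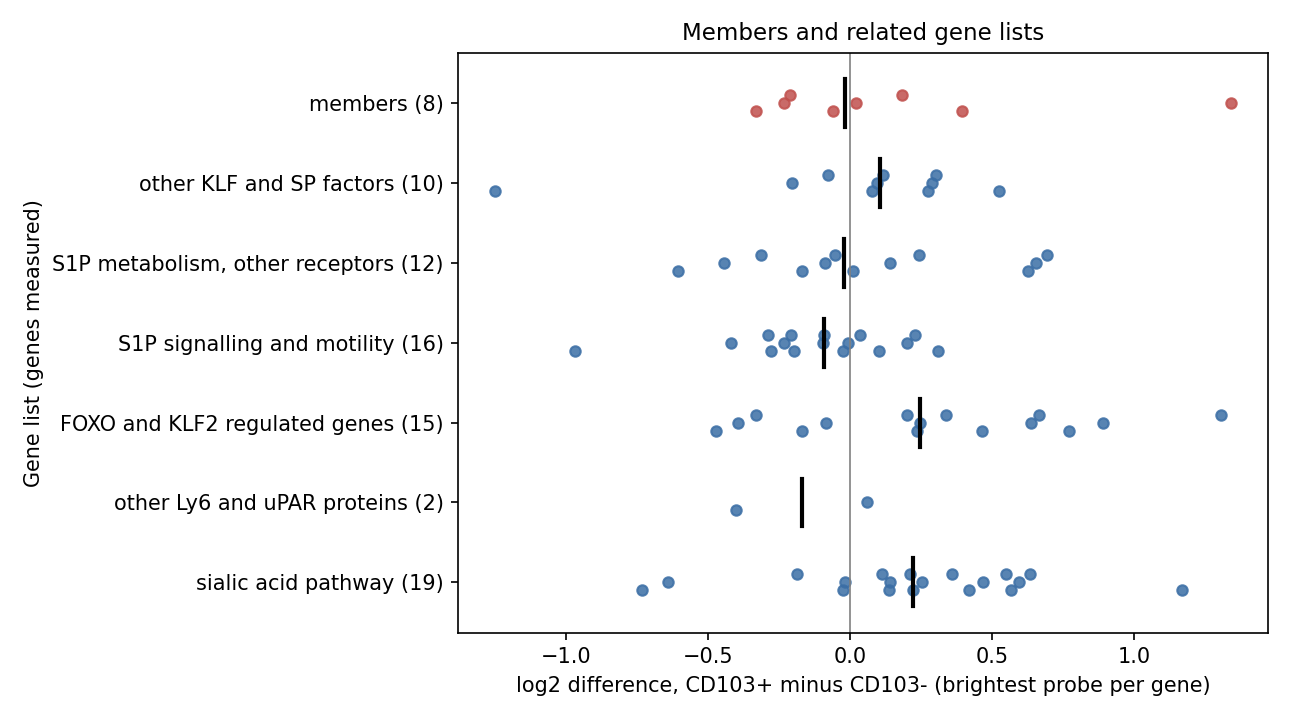
Log2 difference, CD103+ minus CD103- (horizontal axis), of the 8 measured members (red) and of the measured genes of the 6 related lists (blue), by the brightest probe of each gene; black bars are medians. Klf2, the rightmost red point at 1.34, is the gene that passed, and the list medians lie between -0.17 and 0.25.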

How the data were processed

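The authors' deposited intensity values are 1 signal per probe and array, not normalized, per the file headers, each followed by a detection p-value. The authors' deposited log2 values, whose normalization the sources used here do not give, served as an alternative. Of 45281 probes, 18 whose values were shifted by annotation text were left out. Symbols came from the platform annotation and RefSeq: 34874 probes had 1 symbol, 18 several and 10371 none. Signals were background-corrected, quantile-normalized and log2-transformed with neqc of limma 3.58.1 (R 4.3.3, offset 16, background inferred from detection p-values). A probe was tested where 3 or more of the 6 arrays had a detection p below 0.05 (17462 probes, 8999 genes). The test was the two-sided one of lmFit and eBayes, with p-values adjusted after Benjamini and Hochberg across all tested probes. A gene was represented by its brightest tested probe. Precision is limited by the 3 arrays in each group.

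Arrays of the same replicate number deviated together (correlations of deviations from the group mean over tested probes of 0.170, 0.125 and 0.305, against -0.231 to 0.0824 for different numbers). The labels do not state a pairing. Deviations within a group cancel out, so positive values for the same numbers lower those for different numbers. The pairing thus rests on weak evidence from the data. The fit without the block is reported, and the blocked value stands beside results it changes. With the block 83 of 17462 probes passed, against 206 without it. The alternatives were other background corrections, scalings, offsets, filters and variance models, the authors' values, the replicate block, leaving out arrays, and brightness as a covariate. Before centring, median scaling moved the median difference of all tested probes to 0.73 and the authors' values to 0.13, and both are given relative to that median. The members and lists were chosen with earlier results of these data known. Named are all members, the 3 profiles nearest to each member ranging over at least 1 log2 unit, listed genes past the threshold and a fixed set of pathway genes, of which Grk2, Ly6a and Ly6c2 were not analysed here; Klrb1c (-0.46) and Cd44 (-0.10), fixed for the sort, did not pass.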

Additional observations from a re-analysis of the deposited data

How the results depend on the processing

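The Klf2 result kept its direction in all 19 alternatives. One member probe, that of Klf2, was past the threshold as reported; 0 were with array brightness as a covariate, and 0 to 1 when single arrays were left out. The other member probes passed in none of 189 fits (lowest adjusted p 0.0551, for the dimmer Klf13 probe without CD103- array 1). Over all genes, 104 were higher as reported, and 52 were with median scaling, 167 with array weights, 51 with the replicate block, 68 without the 2 dim CD103- arrays, 2 with the brightness covariate and 30 (without CD103+ array 1) to 287 (without CD103- array 1) when single arrays were left out. Lower were 20 as reported, 57 without background correction, 35 with cyclic loess, 33 with an offset of 50, 37 in the authors' values, 32 with the strict detection filter, 59 with an intensity trend, 42 with array weights, 4 with the block, 7 without the dim arrays, 0 with the brightness covariate and 2 to 97 when single arrays were left out. The cause of these shifts was not tested. With the block, Klra22, Serp2, Ly86, Klri1 and the dimmer Il7r and Bcl2 probes lost their calls. With it 6 macrophage markers passed in place of 8, and no other call named in the report changed.

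In the lists, where no gene passed as reported, 1 other KLF or SP factor was lower with median scaling and 0 to 1 without single arrays; 1 S1P metabolism gene was higher without background correction, with the offset of 50 and with the trend; 1 S1P signalling gene was lower without background correction, with plain normexp, loess, the offset of 50, the authors' values, the strict filter, the trend and array weights, and 0 to 1 without single arrays. Of the FOXO and KLF2 list, 2 genes were higher without background correction, with the offset of 50, the trend and array weights; 1 was with normexp, loess, the strict filter and all probes, which also had 1 lower; 0 to 1 were without single arrays. Of the sialic acid list, 1 gene was higher without background correction, with normexp, the offset of 50, the strict filter, the trend and array weights; 0 to 2 were higher and 0 to 1 lower without single arrays.

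Log2 differences that changed sign did not pass the test under either setting. With median scaling Klf6 was -0.23, Ly6c1 -0.20, Cmah 0.059, Ccr7 -0.44, Sgpl1 0.042, Ly6e -0.59 and St3gal6 -0.10. With loess Klf6 was -0.0037, Ccr7 -0.053 and Ly6e -0.11, and in the authors' values Klf6 was -0.095, Ccr7 -0.010 and Ly6e -0.34. Without the 2 dim CD103- arrays Klf3 was 0.040, Klf6 -0.022, the dimmer Klf13 probe 0.049, the dimmer Cmah probe -0.24, Ccr7 -0.42, Gnai2 0.0057 and Ly6e -0.11. With the brightness covariate Klf3 was 0.081, the dimmer Klf13 probe 0.038, the dimmer Cmah probe -0.20, Cd69 -0.056, Ccr7 -0.59, Klf4 -0.025, Gnai2 0.063 and Ly6e -0.18. Without single arrays the ranges crossed 0 for Klf6 (-0.031 to 0.087), S1pr5 (-0.58 to 0.062), Cmah (-0.13 to 0.012; dimmer probe -0.020 to 0.25), Dennd2d (-0.59 to 0.026), Afp (-0.49 to 0.22), Scrn3 (-0.41 to 0.22), Ccr7 (-0.065 to 0.51), Klf4 (-0.14 to 0.69) and Cd44 (-0.16 to 0.017). The detection limit kept S1pr1 and the dimmer S1pr5 probe out of every test but that without a filter, and 2 of 3 CD103- arrays were dimmer than every CD103+ array, so the brightness covariate takes up part of the contrast itself.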
